A study of Rattus norvegicus with 6 samples.

Results

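The genes described here are those of mitochondrial metabolite carriers, of the protein import machinery and of the outer membrane channels. They were chosen by name from the array's annotation table: Slc25a carriers, Timm and Tomm import genes and Vdac1 to Vdac3. In all, 94 probe sets carried such a name as their only symbol, and 1 probe set per gene, the one with the highest mean over 6 arrays, left 66 genes of 14217 measured. Of these, 40 are Slc25a carriers and 26 are import and channel genes. A further 3 probe sets listed with several symbols, among them that for Timm23, were left out by the rule and not analysed here.

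The arrays compare rat flat pluripotent stem (fPS) cells with rat embryonic stem (ES) cells, with 3 arrays in each group, all from the Sprague-Dawley strain. The protocols are given in the same words for both: a medium with LIF, the GSK3 inhibitor CHIR99021 and the MEK inhibitor PD0325901, growth on mouse embryonic fibroblasts blocked with mitomycin C, and removal by hand into Trizol. The description field of the fPS samples names embryonic stem cells, while their titles and cell type field name fPS cells, and the titles and cell type field were followed. No age is given, and separate cultures are not stated for the 3 arrays of a group. The p-values therefore reflect how far these arrays vary among themselves, and that variation may be technical in part or in whole.

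Most mitochondrial proteins are made in the cytosol. The TOM complex of the outer membrane takes them in, the TIM23 complex passes those with a presequence through the inner membrane, and small TIM chaperones hand carrier proteins to the TIM22 complex. The Slc25a carriers exchange nucleotides, phosphate, organic acids, amino acids, cofactors and iron across the inner membrane, and the Vdac channels let small metabolites through the outer one. Pluripotent cells have mitochondria with few cristae and lean on glycolysis, and naive ES cells also respire.

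None of the 66 genes passed the test. Limma on log2(intensity + 16), with p-values adjusted by the Benjamini-Hochberg method across the 31042 probe sets tested (threshold 0.05), called 0 of 66, and the smallest adjusted p was 0.0986. Over all genes it called 0.858% (0.57% higher and 0.288% lower in fPS cells), so a count of 0 among 66 lies near the background. At an unadjusted p under 0.05 there were 10 members (15.2%), 3 higher and 7 lower in fPS cells, against 17.5% of all genes (8.59% higher and 8.88% lower). By role these were 3 higher among the carriers of cofactors, nucleotides, carnitine and iron, and 1 lower in each of 7 other groups described below, with 0 among the organic acid and amino acid carriers. The median log2 change of the members was -0.013, and that of all other genes was -0.000. A single member, Slc25a33, differed by more than 2-fold, and 53 of 66 had a log2 change between -0.5 and 0.5. For 46 of 66 members the 95% interval of the difference lay wholly within 2-fold in either direction, so changes beyond that size were outside the interval for those genes and not for the other 20. Many of the small differences rested on 1 array: in 47 of 66 members, leaving out some array moved the log2 change by more than 1.5 times, and in 21 it turned the sign.

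The groups did not overlap for 18 members (27.3%, and 22.6% of all genes), of which 4 were higher and 14 lower in fPS cells. That is 6.06% of members on the higher side, where the share of all genes was 11.3%, and 21.2% on the lower side, where it was also 11.3%. The 14 comprised 7 import and channel genes and 7 carriers. Without the dimmest 50% of probe sets, which removed 12 members, the share of non-overlapping genes on the lower side was 25.9% of 54 members and 15.7% of all genes that remained, and 12% of those genes were apart on the higher side. In groups near in kind the lower side held 24.7% of 73 mitochondrial ribosomal protein genes, 17.9% of 28 other import and assembly genes and 11.4% of 79 respiratory chain genes. On the higher side these shares were 1.37%, 0% and 5.06%. All these shares are of the values as deposited, without further scaling, and no test was made of any of them.

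**Figure D1:**
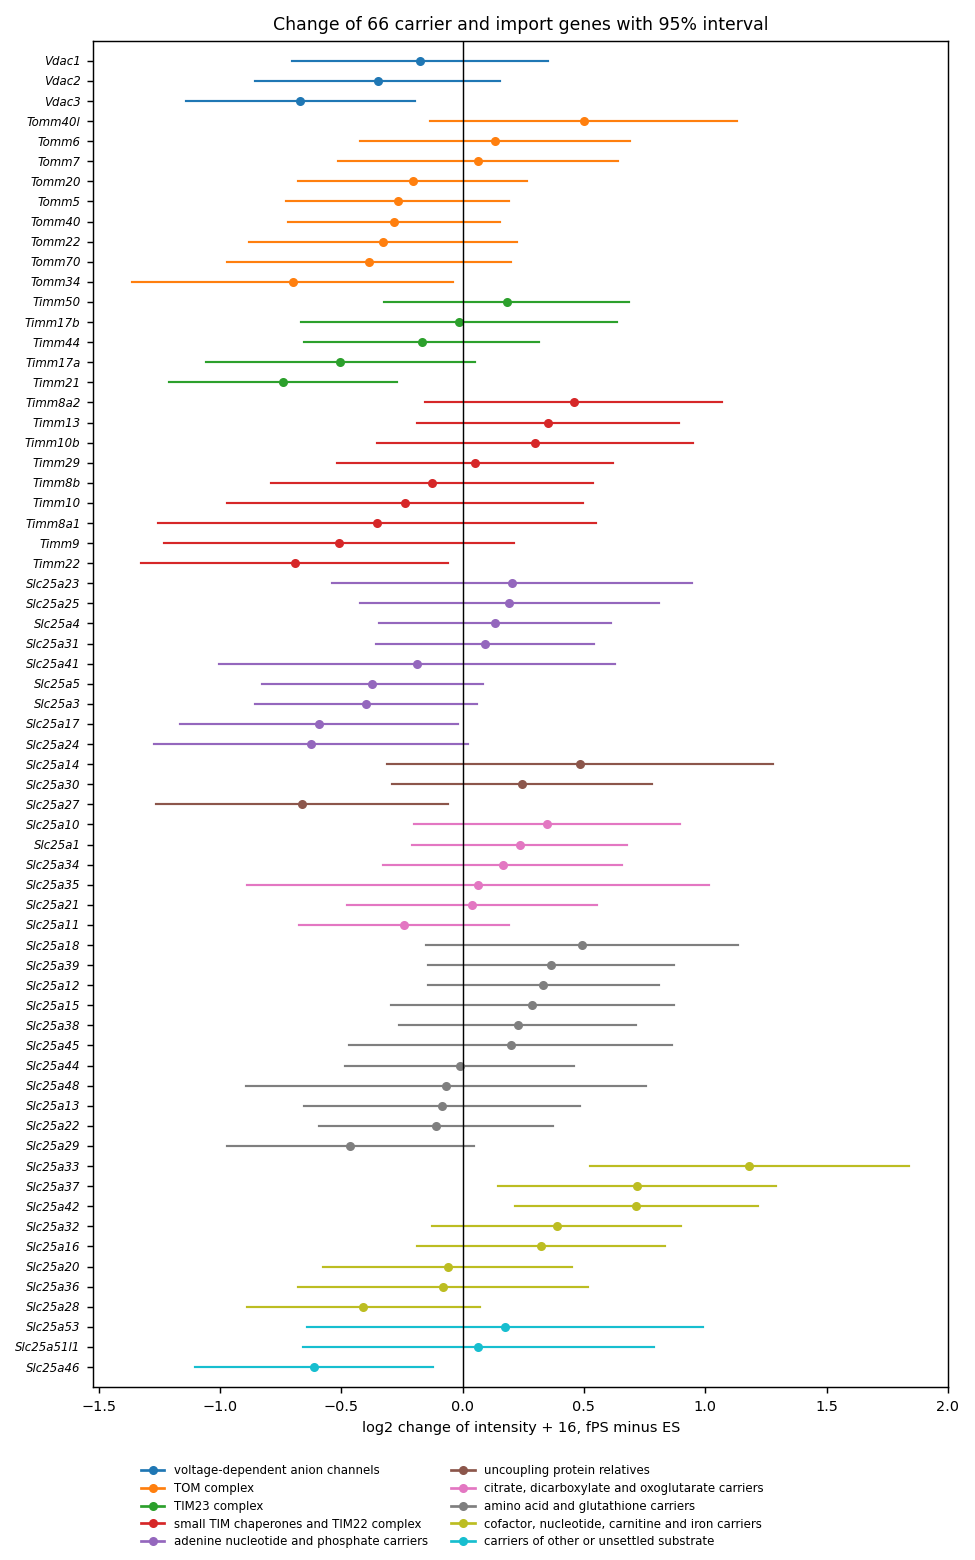
Log2 change of intensity + 16, fPS minus ES, for each of the 66 genes, ordered by role. Points are limma estimates over 3 arrays per group and lines are 95% intervals; 56 of 66 lines cross 0, and the highest point is Slc25a33 at 1.18.

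Import and channel genes leaned to lower values in fPS cells and carriers to higher ones. Of 26 import and channel genes, 18 had a negative and 8 a positive log2 change, with a median of -0.22. Of 40 carriers, 16 had a negative and 24 a positive one, with a median of 0.11. The import median kept its sign under both other scalings, with -0.089 after quantile normalization and -0.28 after centring each array on its median, and so did the carrier median, with 0.10 and 0.054. Centring moved the log2 change of every gene down by the same amount, to a median of -0.060 over all other genes. It therefore could not turn a negative median. Leaving out single arrays gave import medians from -0.30 (without fPS replicate 1) to -0.13 (without fPS replicate 3) and carrier medians from 0.057 to 0.16. The difference between both families was not tested.

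**Figure D2:**
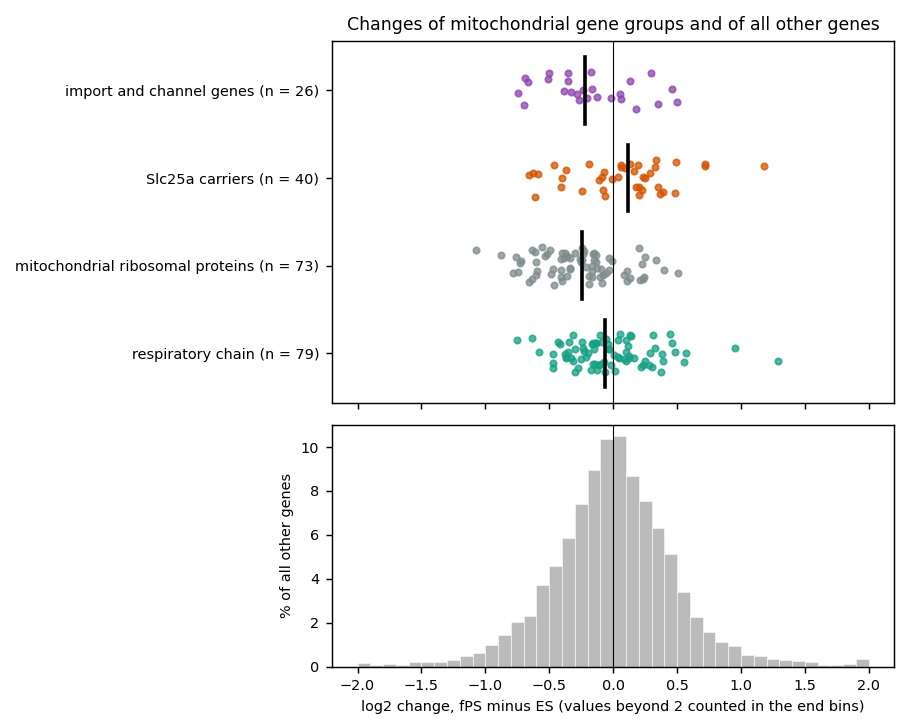
Log2 change, fPS minus ES, of 26 import and channel genes, 40 Slc25a carriers, 73 mitochondrial ribosomal protein genes and 79 respiratory chain genes (upper panel, 1 point per gene, bars at the medians), above a histogram of the 14151 other genes. The medians are -0.22, 0.11, -0.25 and -0.063, and the histogram is centred on 0.

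Promoter sequence was the one further property that could be compared across members. Windows of 300 bases, from 250 before to 50 after the gene's start on the RefSeq assembly GRCr8, were found for 57 of 66 members and 27457 genes in all. This background was not limited to the 14217 genes measured on the arrays, so it differs from that of the other comparisons. Their median G and C content was 58.5% for members and 51.7% for all windows. Searched on both strands, the GC box GGGCGG stood in 66.7% of member promoters and 36% of all. The ETS motif CCGGAAGT, of the kind bound by GABPA, stood in 12.3% and 4.2%, and the E-box CACGTG in 12.3% and 7.08%. The core of the NRF1 motif, CGCATGCG, stood in 3.51% of member promoters (those of Tomm7 and Slc25a44) and 1.86% of all. These are matches of letters and were not tested as binding sites. None of the 4 motifs contains another, and the GC box is itself made of G and C, in which member promoters were richer.

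The promoters of 4 members, picked after their values were seen, are shown, with motif matches in capitals: those of Slc25a33 and Slc25a42, which lay among the 3 largest positive differences, that of Timm21, the largest negative one, and that of the import receptor Tomm20, which holds an ETS motif. Each reads from 5′ to 3′ on the gene's own strand. The window of Slc25a33 lies at chr5:165502924-165503223 (minus strand) and holds a GC box and an E-box. That of Slc25a42 lies at chr16:19247724-19248023 (plus strand) and holds 2 GC boxes. That of Timm21 lies at chr18:80594188-80594487 (minus strand) and holds 0 matches to the motifs searched. That of Tomm20 lies at chr19:71832371-71832670 (minus strand) and holds a GC box and the ETS motif.
Slc25a33: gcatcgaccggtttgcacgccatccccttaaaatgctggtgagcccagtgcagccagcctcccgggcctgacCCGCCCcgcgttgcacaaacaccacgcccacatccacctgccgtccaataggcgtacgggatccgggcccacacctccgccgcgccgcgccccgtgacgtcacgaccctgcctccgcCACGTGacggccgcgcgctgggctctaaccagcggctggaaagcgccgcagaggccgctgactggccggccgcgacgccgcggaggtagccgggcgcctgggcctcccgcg
Slc25a42: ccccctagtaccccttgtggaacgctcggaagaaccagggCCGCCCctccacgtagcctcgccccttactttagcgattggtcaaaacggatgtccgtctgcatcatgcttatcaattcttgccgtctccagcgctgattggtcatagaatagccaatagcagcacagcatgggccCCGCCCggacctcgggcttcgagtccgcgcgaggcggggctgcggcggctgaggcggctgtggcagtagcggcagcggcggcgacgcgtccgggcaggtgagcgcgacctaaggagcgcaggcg
Timm21: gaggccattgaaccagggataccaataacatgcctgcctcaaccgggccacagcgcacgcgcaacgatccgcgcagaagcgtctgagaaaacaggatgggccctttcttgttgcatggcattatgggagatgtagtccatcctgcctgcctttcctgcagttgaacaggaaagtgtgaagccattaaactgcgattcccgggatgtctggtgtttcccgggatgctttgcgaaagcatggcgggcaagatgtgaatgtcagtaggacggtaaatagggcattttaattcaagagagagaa
Tomm20: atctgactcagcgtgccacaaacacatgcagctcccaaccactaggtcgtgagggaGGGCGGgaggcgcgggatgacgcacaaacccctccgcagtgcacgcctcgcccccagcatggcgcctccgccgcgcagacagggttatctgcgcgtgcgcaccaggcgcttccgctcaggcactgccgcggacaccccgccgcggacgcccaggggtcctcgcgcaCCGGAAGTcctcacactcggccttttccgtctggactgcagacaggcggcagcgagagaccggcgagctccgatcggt

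The channels of the outer membrane were all at lower mean levels in fPS cells, and none passed. Vdac3 had intensities of 2780, 2244 and 2138 on the fPS arrays, against 3696, 3530 and 4142 on the ES arrays. All fPS arrays lay below all ES arrays. The log2 change was -0.67 (SE 0.207, 95% interval -1.14 to -0.20), with an adjusted p of 0.173 by limma. Over the alternatives its adjusted p ran from 0.0841 to 0.458. Vdac2, which besides its pore function restrains the apoptosis effector BAK, had 4133, 3870 and 3474 on the fPS arrays and 4543, 4197 and 6057 on the ES arrays, also without overlap (log2 change -0.35, limma adjusted p = 0.51). It was -0.19 without ES replicate 3 and -0.18 after quantile normalization. Vdac1, the best studied of the channels, had 4019, 3737 and 3916 against 3605, 4096 and 5764, with the groups overlapping and ES replicate 3 highest. Its log2 change was -0.18 (SE 0.232), and without ES replicate 3 it was 0.017.

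In the TOM complex the receptors and the pore had negative log2 changes, while the small subunits did not share a direction. Of 9 genes measured, which include the Tomm34 of the next paragraph, 0 passed by limma, and Tomm34 alone had an unadjusted p under 0.05. The log2 change was negative in 6 and positive in 3, and the median was -0.27 (-0.12 after quantile normalization). Tomm20, a presequence receptor, had 5227, 5042 and 4033 on the fPS arrays, against 5158, 5321 and 5954 on the ES arrays, with overlap (log2 change -0.21, SE 0.207). Tomm22, the central receptor, had 2716, 2559 and 1635, against 2758, 2770 and 2956. The groups were apart, with the fPS spread mostly from replicate 3, and the log2 change was -0.33 (SE 0.244, limma adjusted p = 0.585). It was -0.10 without fPS replicate 3 and -0.19 after quantile normalization. The channel Tomm40 had 597, 552 and 562, against 730, 637 and 728, again apart, with a log2 change of -0.28. Tomm70, the receptor for carrier proteins, had a log2 change of -0.38 on the probe set used and of -0.092 on its other one. The small subunits Tomm5, Tomm6 and Tomm7 had log2 changes of -0.27, 0.13 and 0.064. Tomm40l, a relative of Tomm40, was the highest of this group with 0.50 (SE 0.278), at intensities from 50.7 to 67.9 on fPS and from 21.1 to 53 on ES arrays. Its other probe set had 0.038, and without ES replicate 1 the value was 0.22.

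Tomm34, a cytosolic co-chaperone named with this complex, gave opposite answers on its 2 probe sets. The one with the higher mean had 615, 425 and 341 on the fPS arrays, against 711, 568 and 987 on the ES arrays (log2 change -0.70, limma adjusted p = 0.295). The other had 33.4, 35.6 and 46.2, against 26.9, 19.4 and 12.1 (log2 change 0.63, limma adjusted p = 0.239). The fPS arrays overlapped the ES arrays on the first and lay above them on the second, and the mean of both gave -0.035. For 22 members the array carries more than 1 probe set, and the signs were mixed for 9 of the 22.

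The TIM23 complex held the lowest member of all, Timm21, which couples it to the TOM complex. Timm21 had 338, 297 and 270 on the fPS arrays, against 576, 518 and 452 on the ES arrays. The groups were well apart, and the highest fPS array was below the lowest ES array. The log2 change was -0.74 (SE 0.207, 95% interval -1.21 to -0.27), and limma gave an adjusted p of 0.138, with a range from 0.0747 to 0.398 over the alternatives. Timm17a, a channel subunit, had 1779, 1396 and 1096, against 2331, 1861 and 1805, narrowly without overlap (log2 change -0.50, SE 0.243), while its paralogue Timm17b had overlapping groups and a log2 change of -0.014. The receptor Timm50 and the motor anchor Timm44 had log2 changes of 0.18 and -0.17. Of the 5 genes, 0 passed by limma and 4 were negative, with a median of -0.17.

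Among the small TIM chaperones and the TIM22 complex, 5 of 9 genes had a negative and 4 a positive log2 change, and 0 passed by limma. Timm22, the channel that inserts carrier proteins, had 445, 339 and 246 on the fPS arrays, against 719, 506 and 455 on the ES arrays. The groups lay close to each other without overlap, fPS replicate 1 being just below ES replicate 3. The log2 change was -0.69 (SE 0.278, limma adjusted p = 0.279), and its other probe set had -0.44. The partner chaperones Timm9 and Timm10 had log2 changes of -0.51 and -0.24, and Timm8a1, Timm8b and Timm13 had -0.35, -0.13 and 0.35. Timm8a2 had 0.46, at intensities from 36.6 to 52 on fPS and from 15.9 to 43.3 on ES arrays. Timm29 had 0.050, and Timm10b had 0.30, with -0.078 on its other probe set. Timm13 had 3552, 4449 and 3837 on the fPS arrays and 3480, 3561 and 2348 on the ES arrays, where only fPS replicate 1 fell within the ES range. Its interval was -0.19 to 0.89. After quantile normalization 4 of these 9 genes were negative and 5 positive, and the median was 0.019 in place of -0.13.

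These chaperones varied more between arrays of 1 group than between groups. Their mean log2 level was 9.41, 9.29 and 8.78 on fPS replicates 1 to 3 and 9.48, 9.27 and 8.98 on ES replicates 1 to 3, so the lowest array of each group was its replicate 3. Ribosomal protein genes of the mitochondrion had the same lowest arrays, with 9.85, 9.72 and 9.41 on fPS and 10.10, 9.98 and 9.69 on ES arrays. So had the respiratory chain genes, with 10.46, 10.55 and 10.41 on fPS and 10.68, 10.64 and 10.16 on ES arrays. The channels did not, with 11.82, 11.65 and 11.59 on the fPS arrays and 11.94, 11.95 and 12.36 on the ES arrays, where ES replicate 3 was highest. Over all genes the mean log2 level was 7.10, 6.99 and 6.86 on fPS and 6.96, 6.94 and 7.03 on ES arrays. So fPS replicate 3 was the lowest fPS array for genes in general, while ES replicate 3 was the highest ES array. The arrays with low chaperone values were those on which the 21 fibroblast markers were highest, at mean log2 levels of 6.76, 6.60 and 7.21 on fPS and 6.01, 6.33 and 7.28 on ES arrays. The part of other cells in these values was not tested.

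**Figure D3:**
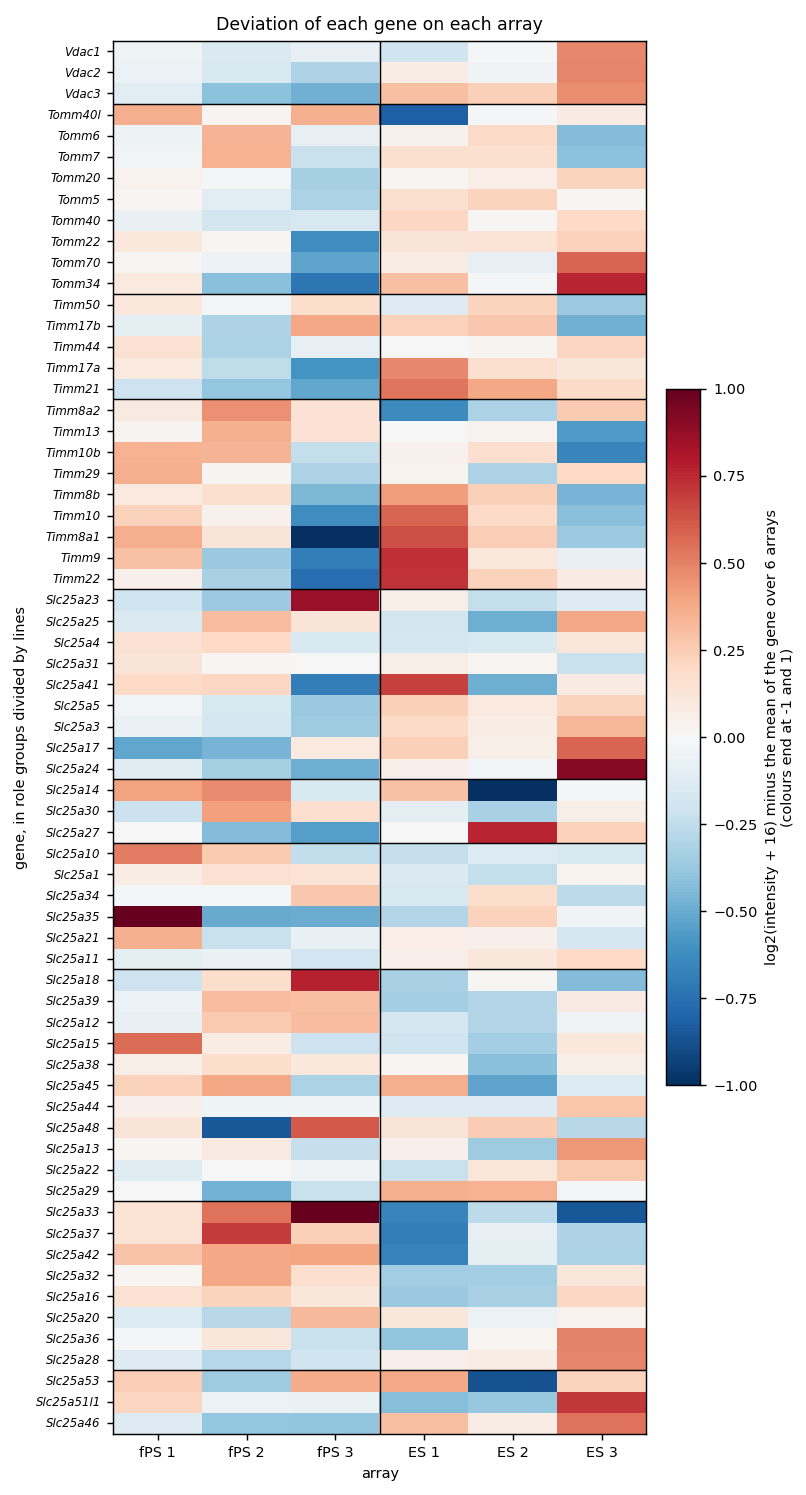
Deviation of each of the 66 genes on each of 6 arrays from its own mean, on the scale of log2(intensity + 16), with fPS arrays on the left, ES arrays on the right and role groups divided by lines. Timm8b, Timm10 and Timm8a1 are low on replicate 3 of both groups, and Slc25a33, Slc25a37 and Slc25a42 are high on all fPS arrays.

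The carriers for adenine nucleotides and phosphate, which feed ATP synthesis and export its product, had 4 positive and 5 negative log2 changes, and 0 of 9 passed by limma. Slc25a5, the ADP/ATP carrier typical of dividing cells, had 5593, 5111 and 4416 on the fPS arrays, against 6740, 6112 and 6664 on the ES arrays. Slc25a3, the phosphate carrier, had 4460, 4135 and 3653, against 5324, 4914 and 5901. In both genes all fPS arrays lay below all ES arrays, at log2 changes of -0.37 (SE 0.200) and -0.40 (SE 0.201), with limma adjusted p-values of 0.432 and 0.401. Slc25a4, the ADP/ATP carrier best known from muscle and heart, had 2820, 2904 and 2279, against 2244, 2276 and 2759. Its groups overlapped and its log2 change was 0.13 (95% interval -0.35 to 0.61). Slc25a31, the ADP/ATP carrier of germ cells, had intensities from 5.52 to 7.56 on fPS and from 2.5 to 6.45 on ES arrays, within the dimmest 30% of probe sets.

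Slc25a24 and Slc25a17, further genes of that group, had larger negative differences. Slc25a24, a calcium-regulated exchanger of ATP-magnesium and phosphate, had 1098, 949 and 850 on the fPS arrays, against 1241, 1174 and 2266 on the ES arrays. The groups were apart, with ES replicate 3 far above the rest. The log2 change was -0.62 (SE 0.285, limma adjusted p = 0.343), and leaving out single arrays gave values from -0.79 to -0.32. Slc25a17, a carrier of the peroxisome, had a log2 change of -0.59 (SE 0.252), with fPS replicate 3 at 542 above ES replicate 2 at 527. The related exchangers Slc25a23, Slc25a25 and Slc25a41 had log2 changes of 0.20, 0.19 and -0.19, and none kept its sign without every single array. Slc25a23 had -0.32 and 0.022 on its other probe sets, and -0.18 without fPS replicate 3. Slc25a25 had -0.0044 without ES replicate 2. Slc25a41, within the dimmest 30% of probe sets, had 0.11 without ES replicate 1 and also without fPS replicate 3.

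The carriers of cofactors, nucleotides, carnitine and iron held the 3 largest positive differences of all members. Slc25a33, a carrier of pyrimidine nucleotides linked to mitochondrial DNA and RNA synthesis, had 196, 265 and 397 on the fPS arrays, against 106, 145 and 91.6 on the ES arrays. Every fPS array was above every ES array. The level was 286 ± 102 in fPS and 114 ± 27.6 in ES cells (SD, n = 3 each), and limma gave a log2 change of 1.18 (SE 0.290, 95% interval 0.52 to 1.84, adjusted p = 0.0986), which did not pass. It passed when the dimmest 30% or 50% of probe sets were left out before the fit (adjusted p = 0.0485 and 0.0341), where 2.23% and 3.08% of all genes tested were called higher. Over all alternatives the adjusted p ran from 0.0341 to 0.317 and the log2 change from 0.93 to 1.41.

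Slc25a37, the mitoferrin that brings in iron for heme synthesis, had 249, 376 and 269 on the fPS arrays, against 133, 212 and 179 on the ES arrays. Slc25a42, a carrier of coenzyme A, had 145, 157 and 158, against 67.1, 108 and 90.2. Both had all fPS arrays above all ES arrays, and the fPS values of Slc25a42 were nearly equal. Their log2 changes were 0.72 (SE 0.252) and 0.72 (SE 0.220), with limma adjusted p-values of 0.218 and 0.17. Leaving out single arrays gave 0.55 to 0.86 for Slc25a37 and 0.56 to 0.85 for Slc25a42. The second mitoferrin, Slc25a28, had 90.1, 78.7 and 84.7, against 104, 106 and 146, so that the groups were apart in the opposite direction (log2 change -0.41, SE 0.211, limma adjusted p = 0.41).

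The other 4 genes of that group differed less. Slc25a36, the second pyrimidine nucleotide carrier, had 695, 758 and 600 on the fPS arrays, against 531, 710 and 995 on the ES arrays, which overlap widely. Its log2 change was -0.082 (SE 0.263) and turned positive on its other probe set (0.27). Slc25a32, a carrier of folate and FAD, had log2 changes of 0.39 and -0.25 on its 2 probe sets, and Slc25a16, linked to coenzyme A, had 0.32. Slc25a20, the carnitine carrier needed for fatty acid oxidation, had -0.061.

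Carriers of organic acids and amino acids showed small differences in both directions. Slc25a1, the citrate carrier that supplies acetyl units for lipid synthesis, had 1481, 1564 and 1547 on the fPS arrays, against 1271, 1191 and 1443 on the ES arrays. The groups were apart in a narrow range, with a log2 change of 0.24 (SE 0.195, limma adjusted p = 0.633). Slc25a11, the oxoglutarate carrier of the malate-aspartate shuttle, was apart on the lower side at 1091, 1115 and 1023, against 1217, 1268 and 1345 (log2 change -0.24, SE 0.190). Its partners in the shuttle, the aspartate and glutamate carriers Slc25a12 and Slc25a13, had log2 changes of 0.33 and -0.086. Slc25a10, the dicarboxylate carrier, had 0.35.

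Among 11 amino acid and glutathione carriers, 6 log2 changes were positive and 5 negative, 0 passed by limma and in 0 were the groups apart. After quantile normalization 8 were positive and 3 negative. Slc25a39, a glutathione carrier, had 1092, 1412 and 1405 on the fPS arrays, against 896, 928 and 1208 on the ES arrays, with fPS replicate 1 below ES replicate 3 (log2 change 0.36, SE 0.223). Its other probe set had the opposite sign (-0.17), and the mean of both gave 0.098. The glycine carrier Slc25a38 and the ornithine carrier Slc25a15 had log2 changes of 0.23 and 0.29. Slc25a18, a glutamate carrier, had 0.49 at intensities from 6.09 to 27.5 on fPS and from 2.92 to 9.72 on ES arrays, within the dimmest 30% of probe sets. The lowest of the group was Slc25a29, a carrier of basic amino acids, with -0.46.

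Of the relatives of the uncoupling proteins, Slc25a27 had a negative difference on all 3 of its probe sets. Its probe set with the highest mean had 72.2, 49.6 and 44.3 on the fPS arrays, against 72.7, 134 and 88 on the ES arrays, where fPS replicate 1 and ES replicate 1 nearly meet. Its 3 probe sets had log2 changes of -0.66, -1.18 and -0.56, with limma adjusted p-values of 0.277, 0.0851 and 0.435. Slc25a30 had a log2 change of 0.25 (SE 0.236), with -0.096 on its other probe set and 0.10 without fPS replicate 2. Slc25a14 had 0.48 (SE 0.350), which was 0.10 without ES replicate 2 and 0.75 without ES replicate 1. Slc25a46, an outer membrane protein that takes part in fusion and fission, had 410, 340 and 339, against 559, 475 and 663. Its groups were apart, and both of its probe sets had like values, with log2 changes of -0.61 (SE 0.216, limma adjusted p = 0.221) and -0.66. The log2 changes of Slc25a53 and Slc25a51l1 were 0.18 and 0.065.

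**Figure D4:**
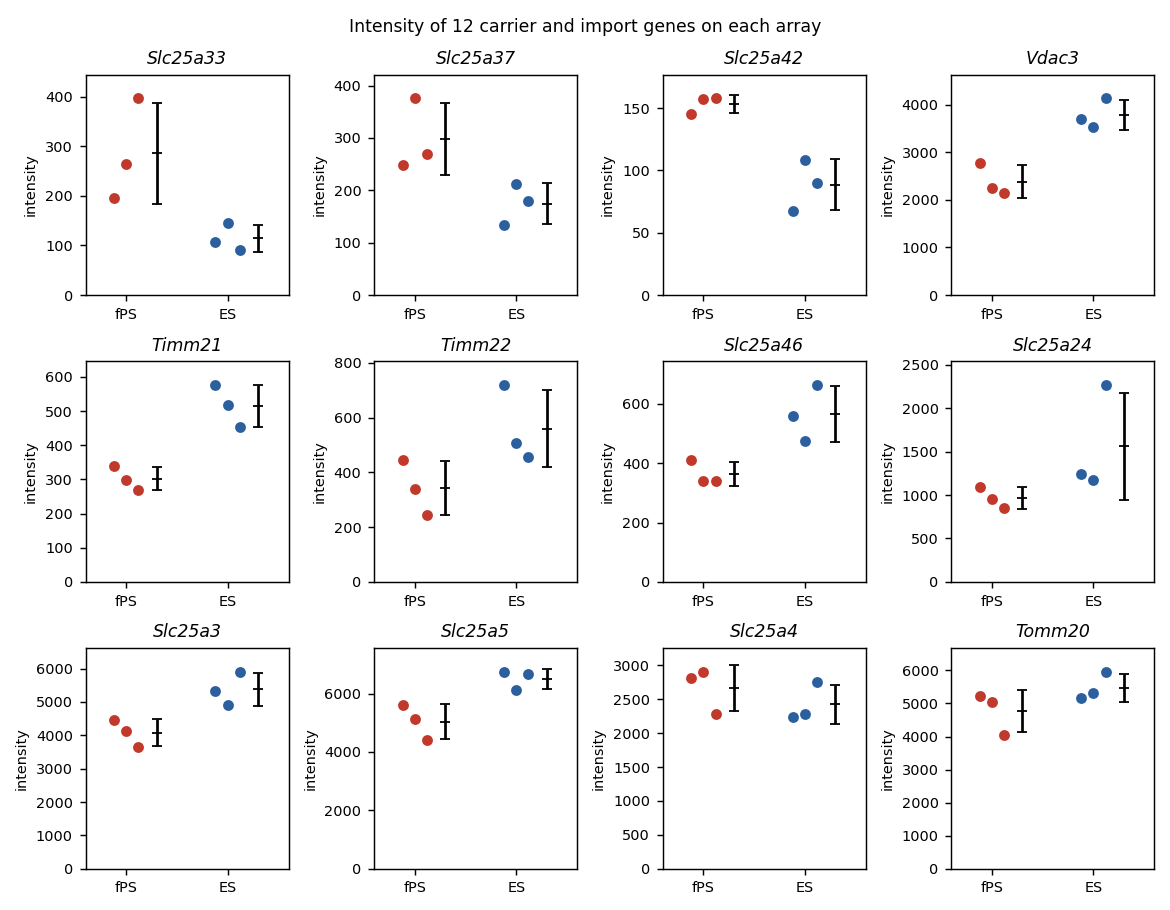
Intensity of 12 genes on each array, fPS arrays on the left and ES arrays on the right of each panel, with the mean and SD of 3 arrays beside the points on a linear axis from 0. The points of both groups do not overlap in any panel except those of Slc25a4 and Tomm20. The 12 genes are a selection: over all 66 members the groups did not overlap for 18 (27.3%, and 22.6% of all genes).

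Other genes of import and inner membrane transport lay outside the naming rule. Of 28 further import and assembly genes, 0 passed by limma (1 at an unadjusted p under 0.05, 3.57% where all genes had 17.5%), 21 had a negative log2 change and the median was -0.21. After quantile normalization 16 were negative and the median was -0.080. The matrix chaperone Hspd1 and its partner Hspe1 had log2 changes of -0.26 and -0.0085, and Mtx1, an outer membrane assembly factor, and Dnajc11, of the same assembly, had -0.64 and -0.63. Of 14 further transport genes, 1 passed and was lower in fPS cells, against 0.288% of all genes called lower. This was Sfxn3, a sideroflexin of the inner membrane, with 36.7, 33.8 and 46.2 on the fPS arrays, against 121, 111 and 208 on the ES arrays. Every fPS array was far below every ES array, and the log2 change was -1.53 (SE 0.263, limma adjusted p = 0.0457). The call was lost in each of the 6 fits that left out 1 array (adjusted p from 0.081 to 0.218), with the replicate number as a block (0.0578) and with pseudocounts of 1 and 64 (0.15 and 0.0739). Its relative Sfxn1, a serine carrier, had a log2 change of -0.71 (limma adjusted p = 0.178).

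Of 15 regulators of mitochondrial biogenesis, 0 passed by limma (2 at an unadjusted p under 0.05, 13.3%) and 11 had a negative log2 change, with a median of -0.28. After quantile normalization 9 were negative and the median was -0.17. Tfam, which packages mitochondrial DNA, had 2165, 1843 and 1385 on the fPS arrays, against 2203, 1907 and 2562 on the ES arrays, with overlap (log2 change -0.32). Gabpb1, a subunit of the ETS factor named above, had -0.77 and the nuclear receptor Esrra had 0.67 (limma adjusted p = 0.216 and 0.212).

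The gene groups nearest in kind differed in how far they leaned. Of 73 mitochondrial ribosomal protein genes, 60 had a negative log2 change, with a median of -0.25, and of 79 respiratory chain genes 45 did, with a median of -0.063. Limma called 0 genes in both groups, with 12 and 8 at an unadjusted p under 0.05, or 16.4% and 10.1%, where all genes had 17.5%. After quantile normalization the medians were -0.11 and 0.063, so the sign of the respiratory chain median turned with the scaling. The import and channel genes thus lay close to the ribosomal proteins in their median, with no test of the difference.

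The arrays themselves set limits on all these values. Their median intensity ran from 36.2 to 45.3, the highest on fPS replicate 1. The mean intensity without the lowest and highest 2% of probe sets was 177, 165 and 145 on fPS replicates 1 to 3. On ES replicates 1 to 3 it was 167, 160 and 199. The ratio of β-actin signal near the 3' end to that near the 5' end ran from 2.06 to 4.37, the highest on fPS replicate 2. Among members, 33 had their highest fPS value on replicate 1 (50%, and 50.3% of all genes), and 35 their lowest on replicate 3 (53%, and 52.2%). Of 18 pluripotency markers 12 were measured, 8 with a negative and 4 with a positive log2 change, at mean log2 levels of 10.13 to 10.65 on fPS and 10.51 to 11.07 on ES arrays. Among these Tet1 was lower (log2 change -1.77, limma adjusted p = 0.0489), a call lost in 5 of 6 fits that left out 1 array (adjusted p up to 0.219), with both other pseudocounts and with the replicate block. Lin28a had a log2 change of -1.30 (limma adjusted p = 0.0933). Sox2 had 1281 to 2838 on fPS and 3266 to 4618 on ES arrays, and Klf5, apart in the other direction, had 3011 to 3083 on fPS and 2076 to 2703 on ES arrays (limma adjusted p = 0.181 and 0.506). At an unadjusted p under 0.05 by limma, 3 of the 12 markers were lower in fPS cells and 0 higher (25%, where all genes had 17.5%). Pou5f1 and Nanog had no probe set of their own symbol and were not analysed here. All 21 fibroblast markers were measured, 14 had a positive log2 change and 0 passed by limma (4 at an unadjusted p under 0.05, 19%), and the defining collagen Col1a2 had 112 to 541 on fPS and 4.03 to 712 on ES arrays. In bulk samples fewer cells of a type and less RNA per cell cannot be told apart.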

How the data were processed

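Biotin-labelled cRNA from total RNA of 6 samples was measured on Affymetrix arrays, per the labels' protocols. The deposited values are linear intensity values, 1 for each probe set of an array, judged from the values themselves. How the authors summarised, background-corrected and scaled them is not stated in the labels or headers used here, and the table held 0 other columns of values, so no detection calls were used. Of 31099 probe sets, 57 controls were left out. The platform table gave 20826 probe sets 1 symbol, 436 several and 9780 none.

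Values were analysed as log2(intensity + 16), which understates changes of dim probe sets, with no further normalization or filter. The comparison of fPS with ES used lmFit and eBayes of limma 3.58.1 under R 4.3.3, with p-values adjusted over all 31042 probe sets. The fit was tested on simulated data. Gene symbols were those of the platform table, and all 66 were found unchanged in the RefSeq table of GRCr8, which also gave the promoters. Alternatives were other scalings, pseudocounts and filters on dim probe sets, eBayes settings, other probe sets per gene, the replicate number as a block and each array left out. Genes named are the 6 largest differences in each direction, the 3 brightest of each role group, all Vdac genes and the ADP/ATP carriers. From other lists every gene called was named, with some of the brightest, some of the largest differences and further genes such as Sox2, Klf5 and Col1a2. Further members of the role groups, though not all, were named after their values were seen. The members and lists were chosen with earlier results of these data known, and the promoter motifs after the changes were seen. Plots were made in Python 3.11.15 (matplotlib 3.10.9). The number of arrays limits the precision.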

Additional observations from a re-analysis of the deposited data

How the results depend on the processing

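The count of 0 members passing was kept under quantile normalization, centring, pseudocounts of 1 and 64, eBayes with trend and robust settings, the replicate block, the mean over probe sets, specific probe sets only, and without any single array, with 4 to 16 members at an unadjusted p under 0.05. With the dimmest 30% or 50% removed the count was 1 each, Slc25a33, by construction with fewer probe sets to adjust over and a new prior variance. The count over all genes, 122, was 203 with centring, 0 with a pseudocount of 1 (1831 at an unadjusted p under 0.05), 26 with a pseudocount of 64, 416 and 506 without the dimmest 30% and 50%, 358 with the trend and robust settings, 300 with the mean over probe sets and 64 with the replicate block. Without single arrays it ran from 0 (without fPS replicate 2 or ES replicate 1, with 1615 and 1891 at an unadjusted p under 0.05) to 93 (without fPS replicate 1), with 3 when fPS replicate 3 was left out, 19 for ES replicate 2 and 1 for ES replicate 3. The cause of these shifts was not tested.

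Of all 66 members, 44 kept their sign in every alternative run and 22 did not. The eBayes settings, the replicate block and the filters on dim probe sets leave a gene's log2 change as it is. A sign could therefore turn only in the other alternatives. Quantile normalization moved the log2 change by more than 1.5 times or turned its sign in 34 of 66. Among the 39 members that the naming rule gives, 30 kept their sign, as did 14 of the other 27. After quantile normalization the log2 change turned to 0.039 for Slc25a13, 0.068 for Slc25a20, 0.030 for Slc25a36 and 0.019 for Timm8b, and the mean over probe sets gave 0.092 for Slc25a36. Without single arrays the sign turned for 9, with ranges of -0.28 to 0.11 for Slc25a13, -0.24 to 0.063 for Slc25a20, -0.30 to 0.15 for Slc25a36, -0.13 to 0.43 for Slc25a51l1, -0.21 to 0.41 for Slc25a53, -0.50 to 0.017 for Timm10, -0.39 to 0.065 for Timm8b, -0.050 to 0.27 for Tomm6 and -0.32 to 0.017 for Vdac1. The median of all members, -0.013, ran from -0.086 to 0.049 over all alternatives. Whether the replicate numbers pair the samples cannot be told from these values. Deviations of same-numbered arrays correlated at 0.151, 0.02 and 0.0748, and those of arrays with different numbers at -0.145 to 0.0545. The block called 0 members, as did the fit without it, so that count does not bear on pairing.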
